A study of Homo sapiens with 20 samples.

Results

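The HOX cluster genes were examined in 8 RNA-seq libraries of orthotopic OVCAR8 tumors. Members were the rows whose symbol was HOX, a cluster letter from A to D and a paralog number. Of the 39 such human genes, 38 were among the 24196 genes of the table, and HOXB1 was not analysed here. HOXA had 11 members on chromosome 7, HOXB 9 on chromosome 17, HOXC 9 on chromosome 12 and HOXD 9 on chromosome 2. The family was selected on measured FPKM values, since many of its members stood far above the other libraries in 1 library, PBS replicate 4, so the values of that library are a description, with no p. Whether PBS 4 differs from the others through its tumor, its handling or its label was not tested, and this limits its values and the means over all 8 libraries.

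OVCAR8 is a human ovarian carcinoma cell line. The study grew OVCAR8-sgNC-luc cells, which carry a non-targeting guide and luciferase, in the ovarian fat pad of NSG mice injected at 6 weeks of age. The hosts lack T, B and NK cells. All 8 tumors share this cell line and host. Mice received PBS (n = 4) or sodium gluconate at 1 mg/kg i.p. each week for 35 days (n = 4), and the question put to these libraries is what gluconate changes in the tumors. The labels do not say whether each library came from 1 mouse. The series also describes 12 libraries of CHP1 or TMEM87A knockout cells and their controls, which were not analysed here.

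HOX genes encode homeodomain transcription factors that assign positional identity along the body axis and in the limbs and the reproductive tract. Their order along each chromosome follows their order of expression along the axis, with low paralog numbers anterior and high numbers posterior. HOX proteins bind DNA together with TALE homeodomain partners of the PBX, MEIS and PKNOX families, Polycomb proteins keep silent clusters closed, and Trithorax proteins keep active clusters open. In the developing Müllerian duct, HOXA9 marks the future oviduct, HOXA10 the uterus, HOXA11 the cervix and HOXA13 the upper vagina.

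Expression was in FPKM, fragments of a gene corrected for gene length and library depth, so levels of different genes are compared per length. PBS 4 had 3953205 fragments in its FPKM denominator compared to 39325749 to 46551535 in the other 7 libraries, 9.95 to 11.8 times fewer. It had 15514 genes above 0, and the others had 19991 to 20251. Across the 12486 genes tested, which have a mean of at least 0.5 FPKM over the 8 libraries, Pearson's r of PBS 4 with the other libraries was 0.938 to 0.951, and no pair of the others had an r under 0.980. For these reasons the levels below are described first over the other 7 libraries.

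**Figure D1:**
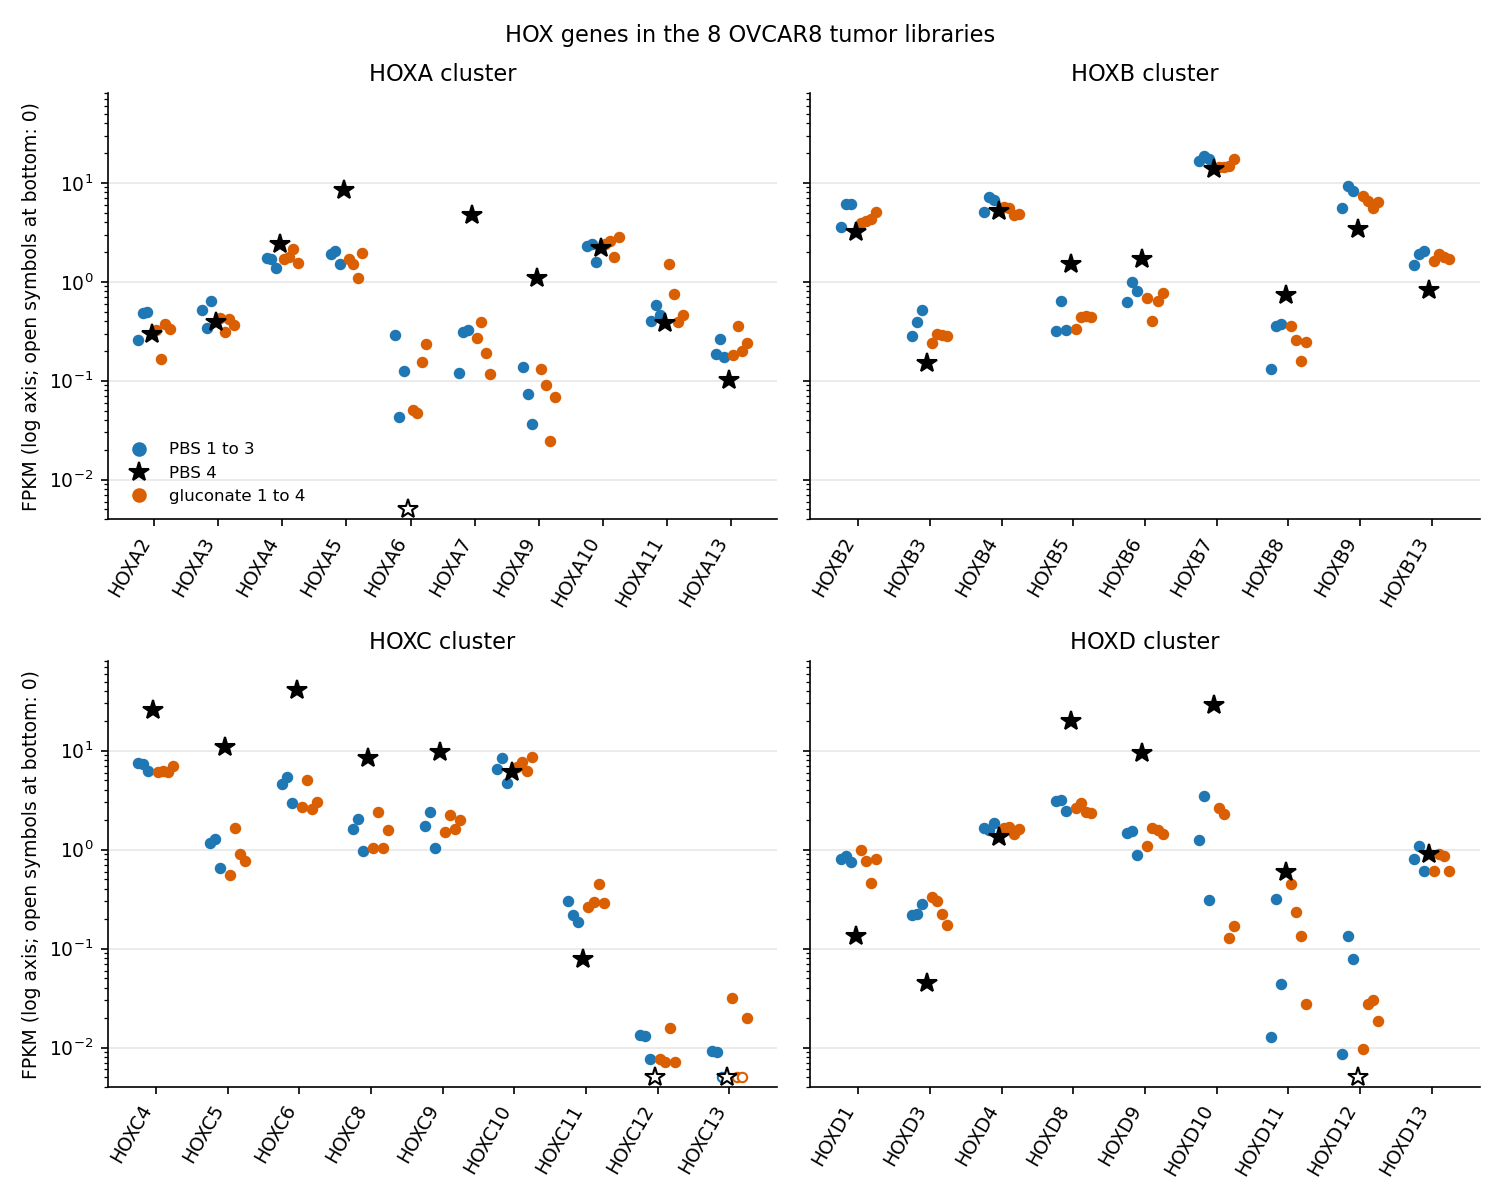
FPKM of HOX genes in each of the 8 tumor libraries on a log axis, by cluster and paralog number. Each symbol is 1 library, black stars are PBS 4, and open symbols at the bottom are libraries at 0. The stars stand above all other libraries from HOXA5 to HOXA9 without HOXA6, from HOXC4 to HOXC9, and from HOXD8 to HOXD10. By smaller factors they also stand above them for HOXA4, HOXB5, HOXB6, HOXB8 and HOXD11. HOXB7 lies at 13.9 FPKM in PBS 4 and at 14.4 to 18.8 FPKM elsewhere.

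Over these 7 libraries the HOXB cluster carried the most HOX RNA. Its summed level was 32.7 to 45.7 FPKM, compared to 16.8 to 27.1 FPKM for HOXC, 8.97 to 11.4 FPKM for HOXA and 7.17 to 12.4 FPKM for HOXD. HOXB7, a gene of the middle of the cluster, had the highest level of all members, with 16.7, 18.8 and 17.5 FPKM in PBS 1 to 3 and 14.4, 14.4, 14.8 and 17.5 FPKM in gluconate 1 to 4. Its lowest library lay above the highest library of every other member. HOXC10, HOXB9, HOXC4 and HOXB4 followed with medians of 6.91, 6.61, 6.25 and 5.56 FPKM, and the ranges of neighbours in this order overlapped, as they did for the members below them.

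In HOXA, HOXA10, of the uterine segment, was among the most abundant genes. It was at 2.30, 2.42 and 1.59 FPKM in PBS 1 to 3 and at 2.42, 2.58, 1.77 and 2.83 FPKM in gluconate 1 to 4. The groups overlapped. The oviduct gene HOXA9 was near 0 in the 7 libraries, with 0.0246 to 0.138 FPKM.

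In HOXB and HOXC, neighbouring genes could differ widely in level. HOXB9 was at 5.55, 9.40 and 8.32 FPKM in PBS 1 to 3 and at 7.40, 6.61, 5.61 and 6.40 FPKM in gluconate 1 to 4, while its neighbour HOXB8 had at most 0.370 FPKM in these libraries. HOXC10 was at 6.60, 8.46 and 4.71 FPKM in PBS 1 to 3 and at 6.91, 7.68, 6.19 and 8.56 FPKM in gluconate 1 to 4. HOXC12 and HOXC13, at the posterior end of HOXC, were at or near 0, with at most 0.0156 and 0.0316 FPKM.

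In HOXD, HOXD8 and HOXD4 were the most abundant by mean. HOXD4 was at 1.64, 1.57 and 1.86 FPKM in PBS 1 to 3 and at 1.67, 1.71, 1.45 and 1.61 FPKM in gluconate 1 to 4, a narrow range in which the groups overlapped. HOXD10 and its neighbours HOXD11 and HOXD12 had the widest relative ranges among members above 0 in all 7 libraries, with the highest of the 7 libraries 27.0, 35.1 and 15.7 times the lowest. Of the 25 HOX genes tested, 9 had a highest library over 2-fold above the lowest and 1, HOXD10, over 4-fold, where 9.87% and 1.69% of all genes tested did. HOXD11 and HOXD12 were at most at 0.451 and 0.135 FPKM and rest on few fragments.

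The far-above members of PBS 4 lay in 3 of the 4 clusters. A member was counted as far above where PBS 4 exceeded every other library by more than 4-fold. This held for 8 of the 25 HOX genes tested, in a background of 0.793% of all 12486 genes, and for 9 of all 38 members once HOXA9, below the filter on low values, is included. These values chose the family, so nothing is read from the count. HOXA7 and HOXB5 passed the filter only through PBS 4, since their means over the other 7 libraries were under 0.5 FPKM. Summed levels in PBS 4 were 102 FPKM for HOXC, 61.8 FPKM for HOXD and 22.4 FPKM for HOXA, all above the ranges of the other libraries given above, and 30.6 FPKM for HOXB, below them. In bulk RNA, more cells that express a gene and more RNA per cell cannot be told apart.

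The far-above members of HOXA were HOXA5, HOXA7 and HOXA9. HOXA5 was at 8.48 FPKM in PBS 4, with 56 fragments and a 95% Poisson interval of 6.41 to 11.0 FPKM, which like all such intervals covers counting error only. The other PBS tumors had 1.92, 2.07 and 1.50 FPKM of HOXA5, and the gluconate tumors had 1.69, 1.51, 1.08 and 1.96 FPKM. HOXA7 was at 4.77 FPKM in PBS 4, at 0.120, 0.309 and 0.323 FPKM in PBS 1 to 3 and at 0.271, 0.394, 0.189 and 0.116 FPKM in gluconate 1 to 4. In HOXA7, PBS 4 was thus 12.1 times the highest of the other libraries, which overlapped between groups. HOXA9 had 9 fragments in PBS 4, or 1.10 FPKM (95% Poisson interval 0.504 to 2.09), compared to 0.138, 0.0729 and 0.0364 FPKM in PBS 1 to 3 and 0.132, 0.0906, 0.0246 and 0.0680 FPKM in gluconate 1 to 4. HOXA6, which lies between HOXA5 and HOXA7, had 0 fragments in PBS 4, and 3 fragments there would be 0.767 FPKM, above its range elsewhere of 0.0434 to 0.288 FPKM. HOXA10 was at 2.19 FPKM in PBS 4, within its range in the other libraries.

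In HOXC, the members with paralog numbers from 4 to 9 stood above the other libraries and HOXC10 did not. HOXC6 was at 41.1 FPKM in PBS 4 (354 fragments, 95% Poisson interval 36.9 to 45.6), at 4.57, 5.46 and 2.96 FPKM in PBS 1 to 3 and at 2.71, 5.11, 2.58 and 3.06 FPKM in gluconate 1 to 4. It went from rank 7 by median in the 7 libraries to rank 1 in PBS 4. HOXC5 was at 10.8 FPKM in PBS 4, at 1.16, 1.29 and 0.653 FPKM in PBS 1 to 3 and at 0.554, 1.65, 0.900 and 0.770 FPKM in gluconate 1 to 4. HOXC9 was at 9.61 FPKM in PBS 4, at 1.73, 2.39 and 1.04 FPKM in PBS 1 to 3 and at 1.51, 2.22, 1.62 and 1.98 FPKM in gluconate 1 to 4. All 3 genes had overlapping groups apart from PBS 4. HOXC4 reached 25.7 FPKM in PBS 4, with 7.50, 7.26 and 6.25 FPKM in PBS 1 to 3 and 6.04, 6.20, 6.02 and 6.99 FPKM in gluconate 1 to 4. HOXC10 was at 6.14 FPKM in PBS 4, inside its range elsewhere.

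In HOXD, the far-above members were HOXD8, HOXD9 and HOXD10. HOXD10, a gene of limb and trunk patterning, was at 29.2 FPKM in PBS 4 (206 fragments, 95% Poisson interval 25.3 to 33.5). It was at 1.27, 3.47 and 0.309 FPKM in PBS 1 to 3 and at 2.63, 2.28, 0.128 and 0.170 FPKM in gluconate 1 to 4. HOXD10 moved from rank 18 to rank 2 among the members, with PBS 4 at 8.42 times the highest and 23.1 times the median of the other libraries. HOXD8 was at 20.1 FPKM in PBS 4, at 3.13, 3.19 and 2.44 FPKM in PBS 1 to 3 and at 2.65, 2.93, 2.43 and 2.33 FPKM in gluconate 1 to 4. HOXD9 was at 9.46 FPKM in PBS 4, at 1.49, 1.55 and 0.884 FPKM in PBS 1 to 3 and at 1.10, 1.66, 1.58 and 1.43 FPKM in gluconate 1 to 4. Beyond these genes, HOXD4 at 1.33 FPKM lay below its range elsewhere and HOXD13 at 0.903 FPKM lay inside it. HOXD11, at 0.593 FPKM from 4 fragments, lay above its highest level elsewhere of 0.451 FPKM, but not beyond counting error. HOXD1 and HOXD3, the anterior genes of the cluster, had 1 fragment each in PBS 4.

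**Figure D2:**
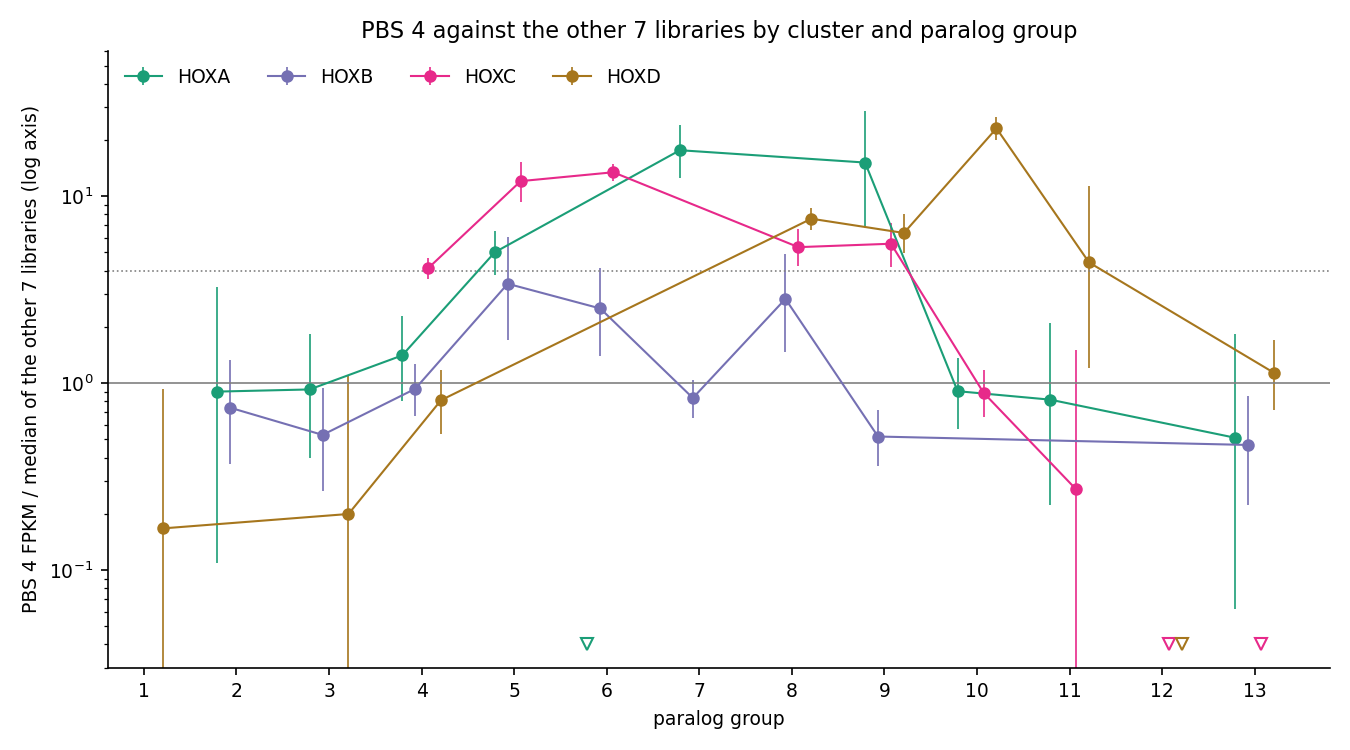
Ratio of PBS 4 to the median of the other 7 libraries in FPKM (log axis) by paralog group and cluster. Bars are 95% Poisson intervals of PBS 4, open triangles are members with 0 fragments there, and the dotted line is a ratio of 4. The dotted line is passed by HOXA5, HOXA7 and HOXA9, from HOXC4 to HOXC9 and from HOXD8 to HOXD11, up to 23.1 for HOXD10. No HOXB gene passes it.

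The HOXB cluster held 0 far-above members. HOXB5, HOXB6 and HOXB8 were above the highest of the other libraries by 2.36, 1.71 and 1.99 times, from 11, 15 and 12 fragments. HOXB7 was at 13.9 FPKM and HOXB9 at 3.42 FPKM, and HOXB9 was the 1 of the 25 HOX genes tested to lie below the other libraries beyond the counting error of PBS 4, in a background of 27.5% of all genes tested.

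By the usual division of the clusters, 0 of 7 anterior members (groups 1 to 3), 5 of 15 central members (groups 4 to 8) and 4 of 16 posterior members (groups 9 to 13) were far above. Among the 3, 13 and 9 members of these groups that were tested, the medians of PBS 4 over the median of the others were 0.739, 4.12 and 0.906, compared to 0.819 over all genes tested. Over all 38 members, those below the filter included, they were 0.739, 3.40 and 0.852. The members just inside the 4-fold line were HOXC9 and HOXA5, with 4.02 and 4.10 times the highest of the others. The members just outside it were HOXC8 and HOXC4, with 3.52 and 3.43 times. Beyond counting error, 11 of the 25 HOX genes tested lay above all other libraries, in a background of 7.5% of all genes tested. PBS 4 was over 2-fold above the others in 11 of the 25 HOX genes tested (background 2.53%), below all of them in 7 (background 58%) and over 4-fold below them in 0 (background 1.87%). The values of PBS 4 chose the family, so nothing is read from these counts and medians.

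Because HOX genes resemble each other most within the homeobox, the 180 bases that encode the homeodomain, this stretch was compared between members in the transcripts of GENCODE 29 on GRCh38. The sequences below are its last 60 bases, which encode the DNA-binding helix, for HOXC6 and 3 other members. HOXC6, HOXD8 and HOXD10 were far above in PBS 4 and HOXB7 was not. Capitals mark bases that differ from HOXC6.
HOXC6: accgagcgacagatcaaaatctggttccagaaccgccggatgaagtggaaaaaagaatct
HOXD8: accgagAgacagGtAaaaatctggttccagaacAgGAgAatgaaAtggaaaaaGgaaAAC
HOXD10: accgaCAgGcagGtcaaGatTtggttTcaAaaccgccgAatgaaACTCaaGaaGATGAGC
HOXB7: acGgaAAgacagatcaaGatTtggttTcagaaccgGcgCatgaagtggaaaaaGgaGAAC

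These windows lie at chr12:54029795-54029854 (plus strand) for HOXC6, chr2:176131448-176131507 (plus) for HOXD8, chr2:176119124-176119183 (plus) for HOXD10 and chr17:48607908-48607967 (minus) for HOXB7. Each lies in exon 2 of 2, in coding sequence. HOXD8 differs from HOXC6 at 12 of the 60 bases, HOXB7 at 13 and HOXD10 at 21. Across all 703 pairs of members, identity over the homeobox ran from 47.8% to 91.1%, with a median of 81.7% for the 40 pairs of the same paralog group and 60.6% for the other pairs.

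Reads were 150 bases long, and outside 1 pair no 2 members shared an identical stretch of more than 65 bases in their protein-coding transcripts. The exception was HOXC4 and HOXC6, with 484 identical bases. These are shared exonic bases rather than copies, since HOXC4, HOXC5 and HOXC6 have transcripts that start at a common exon. Exonic bases of all annotated transcripts, rather than of the protein-coding ones alone, were shared by more pairs. By this measure HOXC5 shares 305 exonic bases with each of HOXC4 and HOXC6, and HOXD10 and HOXD11 share 452. HOXB3 shares 433 with HOXB6 and 159 with HOXB4. How fragments there were assigned is not stated, so the values of genes that share exonic bases may not be independent of each other. HOXA7 overlaps the antisense gene HOXA-AS3 by 1507 exonic bases, and the strand setting of the counting is not stated. HOXA-AS3 itself had 0 fragments in PBS 4 and at most 0.0224 FPKM elsewhere.

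RefSeq (GRCh38.p14) gave a promoter window of 300 bases for 19 members, of which 5 were far above in PBS 4. HOXC4 and HOXC5 have the same window there. The letters CACGTG, which read the same on both strands, occurred in 8 of the 19 windows and in 7.43% of all 27305 windows. Of the 5 far-above members with a window, HOXA7, HOXA9 and HOXD10 held it. The 60 bases around it, upstream of the start, are shown for HOXD10 at chr2:176116645-176116704 (plus strand) and HOXA9 at chr7:27165576-27165635 (minus strand), with the motif in capitals.
HOXD10: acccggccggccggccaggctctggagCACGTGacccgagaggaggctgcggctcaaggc
HOXA9: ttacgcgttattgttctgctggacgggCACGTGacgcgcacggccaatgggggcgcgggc

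The motif begins 106 bases before the start of HOXD10 and 71 bases before that of HOXA9. It was also in the windows of HOXA4, HOXD1, HOXD3, HOXD11 and HOXD13, which were not far above. CpG dinucleotides were more frequent in the HOX windows, with a median of 23 compared to 14 over all windows. TATAAA was in 4 of the 19 HOX windows and in 12.0% of all windows, CCAAT in 16 and 35.7%, TAATTA in 2 and 4.98%, TGATTNAT in 2 and 2.94%, and TTTATGG in 1 and 2.66%, each searched on both strands.

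The far-above members also varied between the other 7 libraries. PBS 2 had the highest level for 5 of the 9 and gluconate 2 for 3, and both libraries were above the median for 8 of the 9. PBS 3 and gluconate 3 were above the median for 1 of the 9 each. For HOXD10, PBS 2, gluconate 1, gluconate 2 and PBS 1 formed a high set, at 1.27 to 3.47 FPKM, and PBS 3, gluconate 3 and gluconate 4 a low set, at 0.128 to 0.309 FPKM. Both sets held tumors of both groups. HOXD8, by contrast, spanned only 2.33 to 3.19 FPKM. The other 17 members tested had PBS 2 above their median in 13 cases and gluconate 2 in 8.

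**Figure D3:**
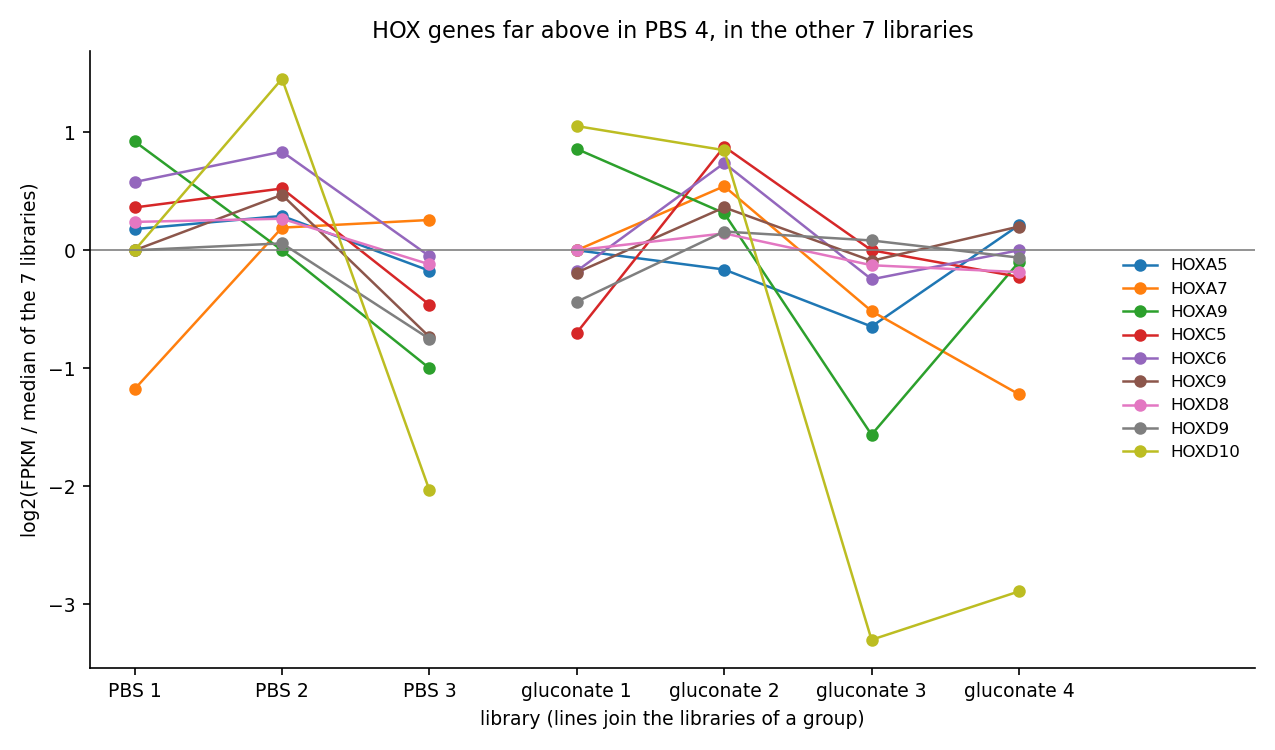
Levels of the 9 HOX genes far above in PBS 4, as log2 of FPKM relative to each gene's median, in the libraries other than PBS 4. Each line is 1 gene and lines join libraries of a group. HOXD10 has the widest range, 0.128 to 3.47 FPKM, and PBS 2 and gluconate 2 are the highest library for 5 and 3 of the 9 genes.

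Gluconate was compared with PBS to ask whether HOX levels moved with treatment. In limma on log2(FPKM + 0.1) with all 8 libraries, 0 of the 25 HOX genes tested were called, which takes a 2-fold change with p under 0.05 before adjustment, in a background of 0.192% of all genes called higher and 0.104% called lower. At an unadjusted p under 0.05 alone, 0 HOX genes passed (background 4.62%), and the lowest adjusted p was 0.740. For 17 of the 25, the difference was below 0 (33.6% of all genes), with a median of -0.20 compared to 0.07 over all genes. This fit holds PBS 4, whose high HOX values chose the family, so nothing is read from this count and median. HOXD10 had the most negative difference, -1.80 (SE 1.30), from 8.56 ± 13.8 FPKM in PBS (SD, n = 4) to 1.30 ± 1.34 FPKM with gluconate (SD, n = 4). HOXC6 followed at -1.18 (SE 0.69), from 13.5 ± 18.4 FPKM to 3.36 ± 1.18 FPKM, and voom on the recovered fragments gave -0.61. In each of the 38 members the groups overlapped, where 2.08% and 1.41% of all genes had gluconate fully above or below PBS. HOXC6 was called without PBS 3, at -1.62, and in no other fit that left out 1 library. That fit still holds PBS 4, whose value chose the family, so nothing is read from the call.

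Without PBS 4, the differences of its far-above members shrank. HOXC6 was at 4.33 ± 1.27 FPKM in PBS (SD, n = 3) and 3.36 ± 1.18 FPKM with gluconate (SD, n = 4), a log2 difference of -0.37 (SE 0.25). HOXD10 was at 1.68 ± 1.62 FPKM and 1.30 ± 1.34 FPKM, a difference of -0.66 (SE 1.00). HOXC9 and HOXD9 went from -0.48 and -0.55 with 8 libraries to 0.15 each. HOXA5, HOXA7, HOXC5 and HOXD8 had differences of -0.23, -0.04, -0.13 and -0.17. None of these members passed the test in either fit. When 1 more library was left out, HOXC6 came under an unadjusted p of 0.05 without PBS 3 (-0.61) and without gluconate 2 (-0.58), and HOXD8 without PBS 3 (-0.29).

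In the same fit without PBS 4, HOXB7 was the one HOX gene at an unadjusted p under 0.05 (background 6.18%). It was at 17.7 ± 1.06 FPKM in PBS (SD, n = 3) and 15.3 ± 1.49 FPKM with gluconate (SD, n = 4), a log2 difference of -0.21 (SE 0.09, limma unadjusted p = 0.0340, adjusted p = 0.802). Gluconate 1 to 3 were below all 3 PBS tumors and gluconate 4 lay among them. HOXB4 came next, at 5.03, 7.16 and 6.77 FPKM in PBS 1 to 3 and 5.72, 5.56, 4.75 and 4.81 FPKM in gluconate 1 to 4, a difference of -0.26 (SE 0.13) with an adjusted p of 0.810 from limma. The genes with positive differences and the lowest p were HOXA11 and HOXA4, at 0.44 (SE 0.38) and 0.16 (SE 0.14). HOXA11, the cervical gene, was at 0.403, 0.588 and 0.460 FPKM in PBS 1 to 3 and at 1.52, 0.744, 0.391 and 0.465 FPKM in gluconate 1 to 4, so that 1 tumor held its high end, and the difference was 0.091 when gluconate 1 was also left out. HOXA4 was at 1.74, 1.68 and 1.37 FPKM in PBS 1 to 3 and at 1.70, 1.79, 2.14 and 1.55 FPKM in gluconate 1 to 4. HOXB7 passed in none of the fits that left out PBS 2, PBS 3, gluconate 1, gluconate 2 or gluconate 3 besides PBS 4, with differences from -0.22 to -0.17. HOXB4 passed when PBS 1 was left out besides PBS 4, at -0.42.

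Over the 25 genes without PBS 4, 0 were called, in a background of 0.024% higher and 0.0641% lower, and 18 had a difference below 0 (51.1% of all genes). The groups again overlapped in all 38 members, where 2.41% of all genes had gluconate fully above and 3.65% fully below PBS. The median difference was -0.13 compared to -0.0033 over all genes, and it was -0.0014 when PBS 2 was also left out. For the 13 members below the filter, the exact permutation test gave no p under 0.05, with a lowest p of 0.114 for HOXC11 with 8 libraries, and of 0.171 for HOXB3 without PBS 4, where the smallest p possible was 0.0571.

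**Figure D4:**
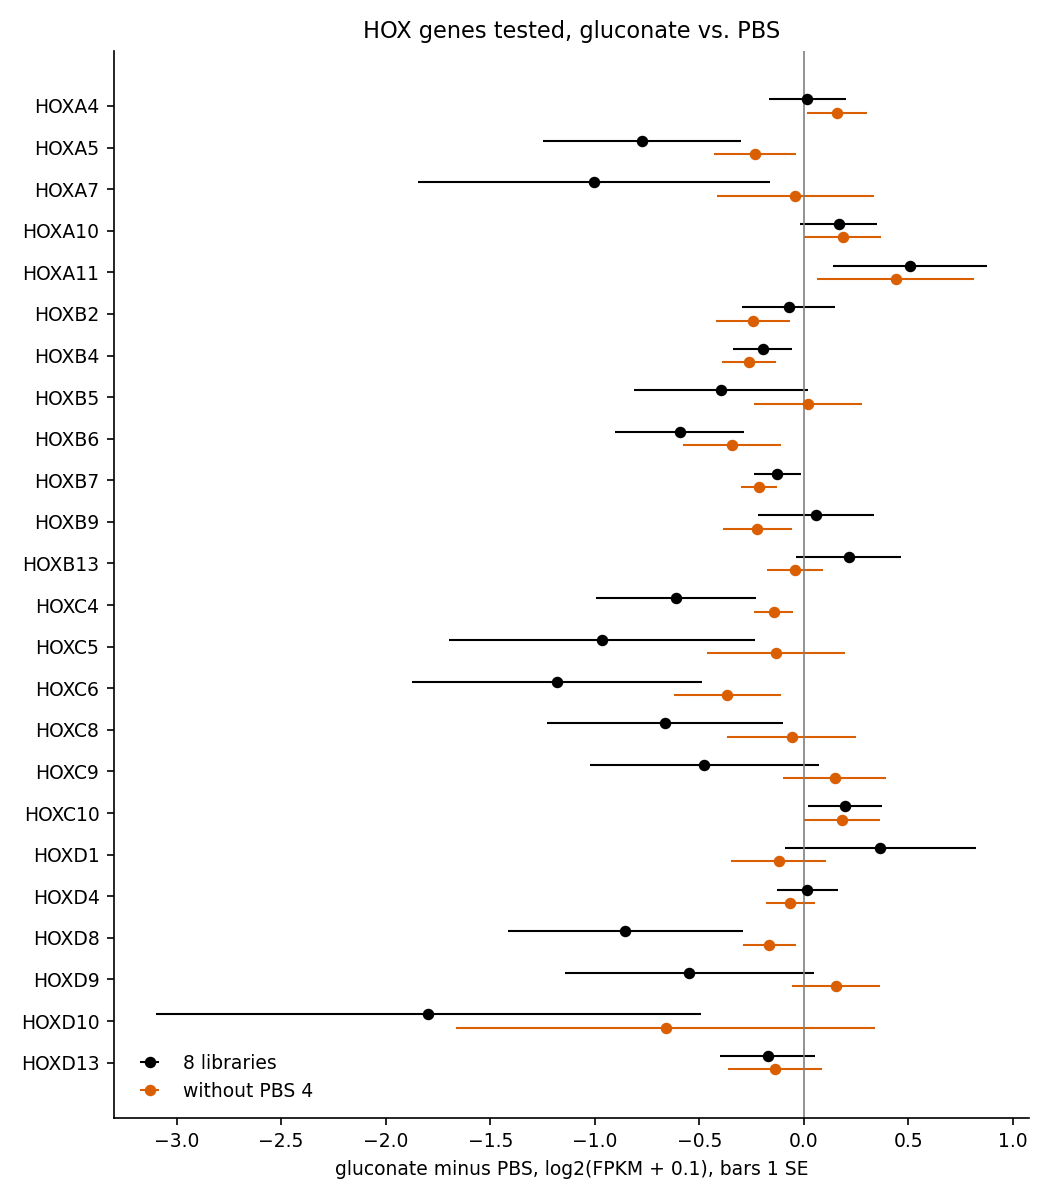
Log2 difference between gluconate and PBS tumors for HOX genes tested, on log2(FPKM + 0.1), with bars of 1 standard error from limma. Black points use 8 libraries and orange points leave out PBS 4. HOXD10 lies at -1.80 and -0.66 in the 2 fits, HOXC6 at -1.18 and -0.37, and HOXB7 at -0.13 and -0.21.

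TALE cofactors are partners of HOX proteins on DNA, and their list was written with these values known. Of the 8 cofactors reported here, 3 were far above in PBS 4 (background 0.793%), 5 were above all other libraries (background 13.7%) and 2 below them (background 58%). MEIS1 was at 37.6 FPKM in PBS 4 (679 fragments), at 2.69, 3.27 and 1.53 FPKM in PBS 1 to 3 and at 2.44, 2.99, 1.32 and 1.12 FPKM in gluconate 1 to 4. MEIS2 and PKNOX2 were at 4.58 and 12.7 times the highest of the others. PBX2, the most abundant cofactor, was at 50.8 FPKM in PBS 4 and at 47.8 to 55.4 FPKM elsewhere. In the other 7 libraries, MEIS1 was higher in PBS 1, PBS 2, gluconate 1 and gluconate 2 than in PBS 3, gluconate 3 and gluconate 4, the same sets of libraries as for HOXD10. This match was named after the values were seen. HOXC5 and HOXC6 did not split this way, since both were lower in gluconate 1 than in gluconate 4. Between gluconate and PBS, 0 cofactors passed the test with or without PBS 4.

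**Figure D5:**
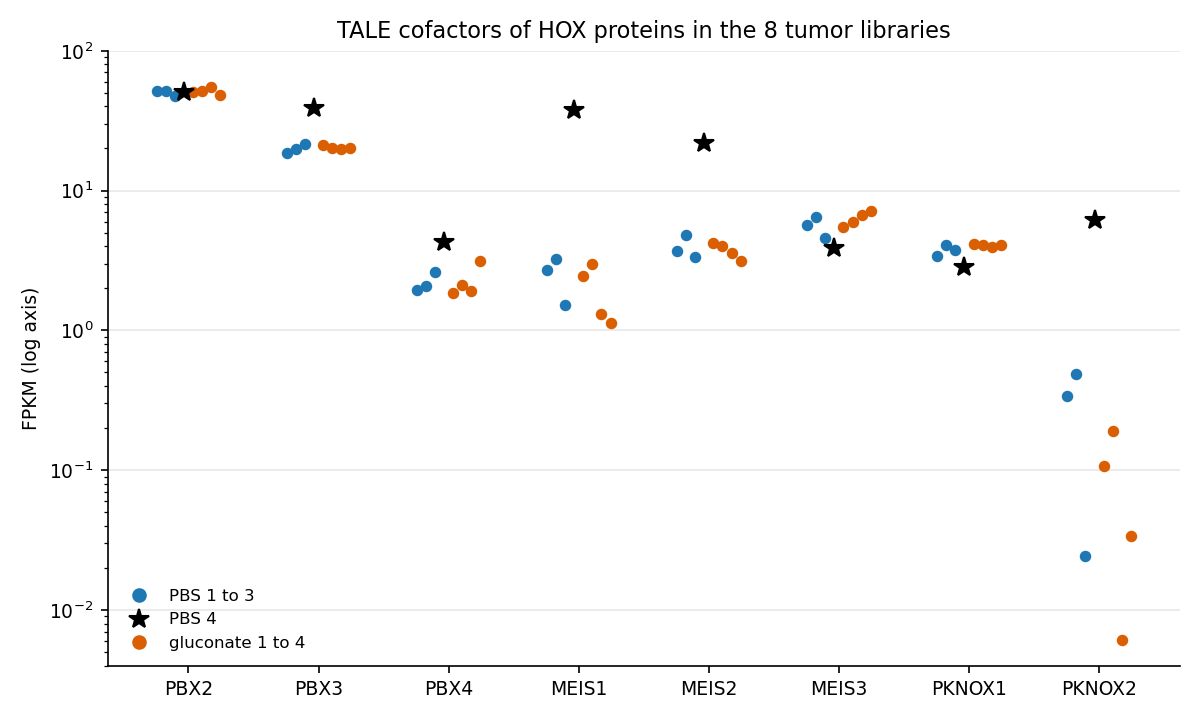
FPKM of TALE cofactors of HOX proteins in each of the 8 tumor libraries, on a log axis. Black stars are PBS 4. MEIS1, MEIS2 and PKNOX2 stand over 4-fold above all other libraries in PBS 4, and PBX2 lies within the others at 50.8 FPKM.

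Genes that regulate HOX clusters lay both above and below their ranges elsewhere in PBS 4, where 13.7% and 58% of all genes tested lay above and below all other libraries. Far above were 0.793% of all genes tested, so nothing is read from the far-above counts of 0 in these lists. Of the 25 Polycomb genes tested, 0 were far above, 7 were above and 10 below all other libraries, and their summed level was 456 FPKM compared to 354 to 367 FPKM in PBS 1 to 3 and with gluconate. RBBP7, a histone-binding subunit, was at 161 FPKM compared to 56.0 to 65.3 FPKM, and EZH2, the catalytic subunit, was at 16.8 FPKM compared to 14.3 to 18.5 FPKM. Of 14 Trithorax genes, 4 were above and 5 below all other libraries, with a summed level of 205 FPKM compared to 163 to 167 FPKM in PBS 1 to 3 and 157 to 164 FPKM with gluconate. The far-above one was KDM6A, a demethylase that removes the Polycomb mark, with 40.3 FPKM compared to 4.71 to 6.75 FPKM. Of 8 retinoic acid genes tested, 0 were far above, 2 were above and 3 below all other libraries. Of 27 tested genes of other homeobox families, 3 were above and 12 below all other libraries. Among them 1 was far above, EMX2, with 5.75 FPKM compared to at most 0.333 FPKM. CDX2, the ParaHox gene tested, was at 2.23 FPKM compared to 0.857 to 1.66 FPKM. Between gluconate and PBS, 0 genes of these 5 lists were called with or without PBS 4.

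Of the 6 non-coding genes within the clusters that were tested, 0 were far above in PBS 4 (background 0.793%), so nothing is read from this count. HAGLROS, at 1.88 FPKM from 5 fragments compared to 0.717 to 1.62 FPKM, was above all other libraries and 3 were below them. Of the 17 in the table, 12 had 0 fragments in PBS 4, and for 11 of these 3 fragments there are worth more than the highest level elsewhere. HAGLR, which lies beside HOXD1, was at 1.25 FPKM in PBS 4 and at 2.35 to 3.03 FPKM elsewhere. HOXD-AS2, whose span on the opposite strand covers HOXD8 and HOXD9 and reaches HOXD3, had 0 fragments in PBS 4, where 3 fragments would be 1.10 FPKM, above its range elsewhere of 0.147 to 0.879 FPKM. The median level of the other libraries would give 1.2 fragments there, so its 0 cannot be told from that level at this depth. The genes that flank the clusters had 0 of 7 far above, with MTX2 beyond HOXD at 20.1 FPKM in PBS 4 and 20.2 to 24.3 FPKM elsewhere.

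Cell type markers were compared in the same way. Of 24 markers with 0 fragments there, 23 were in every other library below what 3 fragments are worth in PBS 4, so their 0 cannot be told from too little depth. The exception was WFDC2, at 0.398 to 2.23 FPKM elsewhere, where 3 fragments are worth 1.34 FPKM. The 15 ovarian carcinoma markers summed to 1984 FPKM there, compared to 1815 to 2419 FPKM in PBS 1 to 3 and 1678 to 2189 FPKM with gluconate. Of the 10 tested, 6 were below and 1, WT1, above all other libraries, where 58% and 13.7% of all genes tested were. PAX8, the Müllerian lineage factor, was at 32.4 FPKM compared to 38.0 to 50.7 FPKM, WT1 was at 6.58 FPKM compared to 1.07 to 1.82 FPKM, and MUC16, KRT19 and WFDC2 had 0 fragments. The 12 fibroblast markers summed to 207 FPKM compared to 348 to 434 FPKM in PBS 1 to 3 and 388 to 524 FPKM with gluconate, with COL1A2, PDGFRA and POSTN at 0 and all 7 tested members below the other libraries, in the same background of 58%. The 10 granulosa and theca markers summed to 24.0 FPKM compared to 5.91 to 7.08 FPKM and 3.93 to 5.84 FPKM, of which FOXL2 gave 21.5 FPKM, while FSHR, CYP19A1, INHA, STAR, CYP17A1, HSD3B2 and INSL3 were at 0. Endothelial markers (10) summed to 11.2 FPKM compared to 14.9 to 19.5 FPKM and 13.1 to 17.6 FPKM, with CDH5, KDR and CLDN5 at 0. Myeloid markers (6) summed to 27.1 FPKM compared to 25.9 to 28.9 FPKM and 20.8 to 28.0 FPKM, with PTPRC, CD14 and LYZ at 0. Adipocyte markers (5) summed to 12.2 FPKM compared to 6.65 to 9.01 FPKM and 6.01 to 8.48 FPKM, with PLIN1, FABP4, CIDEC and PLIN4 at 0. Smooth muscle markers (8) summed to 29.1 FPKM compared to 40.3 to 50.7 FPKM and 41.5 to 68.0 FPKM, with MYOCD at 0. The tumor cells are human and the hosts are mice, and how mouse reads were handled is not stated. The sums of markers other than the carcinoma markers thus do not measure host cells. The part of the cell types above, of host cells and of depth in the HOX levels of PBS 4 was not tested.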

How the data were processed

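RNA was extracted with TRIzol, polyA RNA was selected, and paired-end reads of 150 bases were sequenced. The authors deposited FPKM values for 24196 genes, 1 column per tumor library, without pooling. The submitters' notes name GRCh38; aligner, counting, annotation and filters are not given in the sources used here. Columns headed C and T were taken as PBS and gluconate, as the study's plot of this comparison labels its axis.

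FPKM fell on steps of whole fragments (within 0.001 fragments) for 24194 genes, which gave depths and fragments. Groups were compared with limma 3.58.1 (R 4.3.3; lmFit, eBayes with trend, two-sided, no block) on log2(FPKM + 0.1), which understates changes of low genes. Genes tested had a mean of at least 0.5 FPKM, and adjusted p values are Benjamini-Hochberg over all of them. P values measure the spread between these samples only. Between same-numbered samples, deviations from the group means, PBS 4 included, had r of -0.18, 0.08, 0.17 and -0.06. Other pairs of a PBS and a gluconate sample had r of -0.21 to 0.16. No pairing by replicate number was thus seen.

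PBS 4 chose the family, and its values were described with no p. The members, the lists and the rule for naming genes were chosen with earlier results of these data known. The rule gives every library's value for far-above members, the 2 most abundant members of each cluster, and the 2 rising and 2 falling members of lowest p without PBS 4. Values of 2 genes that the rule or a list holds and 2 homeobox sequences are not reported here, nor drawn in the figures. Other genes were named after their values were seen. Alternatives were other pseudocounts, filters and scalings, voom, a replicate block and leaving out libraries. Python 3.11.15, numpy 2.4.6, scipy 1.17.1, pandas 2.3.3 and matplotlib 3.10.9 were used.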

Additional observations from a re-analysis of the deposited data

Results flagged for a closer look

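Each of 37 members was examined in both groups of 4 libraries for a library whose gap to the nearest other exceeded Dixon's 95% critical value for the range of the group. In the PBS group this picked out PBS 4 for 12 members. The values of PBS 4 chose the family, so this is a description and no test. It lay above the other PBS tumors for HOXA5 (8.48 FPKM), HOXA7 (4.77), HOXA9 (1.10), HOXC4 (25.7), HOXC5 (10.8), HOXC6 (41.1), HOXC8 (8.37), HOXC9 (9.61), HOXD8 (20.1), HOXD9 (9.46) and HOXD10 (29.2). It lay below them for HOXD1, with 0.134 FPKM from 1 fragment.

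In the gluconate group, 4 of the 37 members had such a library, where chance gives about 1 in 20, or 1.85. Gluconate 4 was the highest for HOXB7, with 17.5 FPKM compared to 14.4 to 14.8 FPKM. Gluconate 1 was the lowest for HOXB5, with 0.333 FPKM compared to 0.440 to 0.451 FPKM. Gluconate 3 was the highest for HOXC11, with 0.452 FPKM compared to 0.266 to 0.294 FPKM, and for HOXC12, with 0.0156 FPKM compared to 0.00716 to 0.00759 FPKM. The HOXC12 values rest on 2 fragments in gluconate 3 and 1 in each other gluconate tumor.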

How the results depend on the processing

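With 8 libraries, leaving out 1 library gave 0 to 1 HOX genes called and 0 to 1 at an unadjusted p under 0.05. HOXA4 (0.02) turned to -0.048 with median-ratio scaling, to -0.072 with quantile normalization and below 0 without PBS 2, PBS 3 or gluconate 3, in a range of -0.10 to 0.16 leaving out 1 library. HOXC9 and HOXD9 ranged from -0.88 to 0.15 and from -0.94 to 0.15, with the upper ends without PBS 4. A pseudocount of 1 in place of 0.1, with PBS 4 kept, took HOXD10 from -1.80 to -1.17, HOXA7 from -1.004 to -0.56 and HOXA11 from 0.51 to 0.25. With voom, also with PBS 4 kept, HOXC6 went from -1.18 to -0.61, HOXA7 from -1.004 to -0.42, HOXC5 from -0.96 to -0.42, HOXD8 from -0.85 to -0.37, HOXA5 from -0.77 to -0.41, HOXD9 from -0.55 to -0.062 and HOXC9 from -0.48 to -0.046, while HOXA4 went from 0.02 to 0.11.

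Without PBS 4, the HOX genes at an unadjusted p under 0.05 went from 1 to 3 with the replicate block and to 0 with voom, and ranged from 0 to 4 leaving out 1 more library, with 4 without PBS 1. No pairing of these tumors by replicate number was seen. HOXA7 (-0.04) turned to 0.21 with quantile normalization and to 0.16 with the replicate block. Leaving out 1 more library turned the sign of HOXA7 (-0.35 to 0.16), HOXC5 (-0.41 to 0.070), HOXC9 (-0.16 to 0.41), HOXD9 (-0.086 to 0.29) and HOXD10 (-1.47 to 0.090). None of these passed the test, and the causes were not tested.

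HOX genes over 4-fold below the other libraries in PBS 4 went from 0 to 1 with a 2-fold line, to 3 with no filter and to 0 to 1 leaving out 1 other library, an alternative chosen after seeing the data. The 3 are HOXA6, HOXC12 and HOXD12, with 0 fragments in PBS 4, where the median of the others would give 0.50, 0.099 and 0.28 fragments. The far-above count then stayed at 8 to 9. Depth limits PBS 4, where 3 fragments are worth 0.0414 to 0.861 FPKM in these genes.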
